A study of Mus musculus with 16 samples.

Results

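Hnf4a encodes hepatocyte nuclear factor 4 alpha, a nuclear receptor that binds DNA as a homodimer and controls gene expression in liver, gut, kidney and pancreas. The 3 genes described with it encode secreted proteins of liver or pancreas. Agt encodes angiotensinogen, the precursor that renin cuts at the start of the angiotensin pathway. Serpina7 encodes thyroxine-binding globulin, a carrier of thyroid hormone made by hepatocytes that belongs to the serpin family but does not inhibit proteases. Cela1 encodes chymotrypsin-like elastase 1, a secreted serine protease of the pancreatic elastase family. These 4 genes of the 12321 in the expression table were chosen because their levels differed between the groups, so their own differences are given below as a description and without p-values. The question put to them was whether the 3 secreted-protein genes follow Hnf4a across the libraries.

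RNA came from LKR10, a mouse lung adenocarcinoma cell line, and was measured in 16 libraries, 4 in each of 4 groups. All cells carried a pLKO lentiviral hairpin, against GFP as the control (shGFP) or against Ankrd35 (shAnkrd35). Selection with puromycin (4 µg/ml) took 48 h, and RNA was harvested 96 h later. They grew as a 2D monolayer or, for 3D, in 0.5% methylcellulose with ultra low attachment. The labels do not say that replicates were separate cultures or that a group held more than 1 infected population, so p-values cover only the variation among these libraries, possibly technical.

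Depth was 13.82 M to 28.72 M reads in genes per library. The targeted gene, Ankrd35, had 1 to 7 reads in each 2D library and 9 to 17 in each 3D library. The ranges of the hairpins overlapped in CPM (a gene's reads scaled to library size) in both growth types, so its own level does not check the hairpin labels, and shAnkrd35 below means libraries labelled that way. Of 8 general epithelial markers 6 had rows, with a summed level of 5262 to 8555 CPM, mostly Krt8 and Krt18. Epcam (0.184 to 2.78 CPM) and Krt7 (0.381 to 3.3 CPM) were low, and Cldn4 and Cldn7 had no row. Of the 12321 tabulated genes, 12320 reach 1 CPM, prior count included, in 8 libraries or more, and Ankrd35 is the exception. Rows for 2 of 12 lung epithelial markers, Abca3 and Ager, were present, and the other 10, among them Nkx2-1 and the surfactant genes, had none. Of 8 defining hepatocyte markers 5 had rows, with a summed level of 9.42 to 56.4 CPM, and of 8 defining pancreatic acinar markers 0 had one. Fibroblast markers with rows (5 of 8) summed to 12.6 to 48.2 CPM and macrophage markers (3 of 8) to 41.4 to 152 CPM, mostly Cd14.

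The 250 bases upstream of the annotated starts of Agt, Serpina7 and Cela1 are shown because HNF4 is known to act through sites in such regions (RefSeq, GRCm38.p6, minus strand, each written 5′ to 3′ in the direction of its gene). Capitals mark the letters CAAAG, the core shared by the HNF4 forms searched, or CAAAGNCCA, a longer form that contains the core, on either strand. Serpina7 has another annotated start nearby whose window overlaps this one and holds the same matches. The windows are chr8:124569707-124569956 for Agt, chrX:139085237-139085486 for Serpina7 and chr15:100687921-100688170 for Cela1.
Agt: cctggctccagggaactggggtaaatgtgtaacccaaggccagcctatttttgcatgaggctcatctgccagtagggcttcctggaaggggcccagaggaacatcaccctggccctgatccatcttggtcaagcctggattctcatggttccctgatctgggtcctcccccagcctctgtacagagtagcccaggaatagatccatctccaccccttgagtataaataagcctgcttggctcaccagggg
Serpina7: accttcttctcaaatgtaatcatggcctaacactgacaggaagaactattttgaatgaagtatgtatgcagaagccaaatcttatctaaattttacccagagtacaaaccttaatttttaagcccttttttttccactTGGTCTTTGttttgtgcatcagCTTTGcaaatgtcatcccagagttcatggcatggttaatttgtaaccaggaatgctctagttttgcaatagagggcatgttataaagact
Cela1: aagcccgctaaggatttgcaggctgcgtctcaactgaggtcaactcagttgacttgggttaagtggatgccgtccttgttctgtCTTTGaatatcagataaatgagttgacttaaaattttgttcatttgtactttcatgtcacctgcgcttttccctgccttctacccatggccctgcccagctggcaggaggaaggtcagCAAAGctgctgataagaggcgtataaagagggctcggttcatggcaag

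The Serpina7 window held 1 match to CAAAGNCCA and 2 to the core, 1 of them inside the longer match. The Cela1 window held 2 matches to the core, and the Agt window and both upstream windows of Hnf4a held 0 of these letters. Of 32536 distinct upstream windows of this length in the mouse table, 1.7% held CAAAGNCCA and 48.7% held the core. The stricter forms CAAAGTCCA and CAAAGGTCA (each in 0.4% of windows) and the HNF1 form GTTAATNAT (0.7%) had 0 matches in the windows of the 4 genes. These are matches of letters in 1 window per start and say nothing about binding.

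Hnf4a (ENSMUSG00000017950.16, chromosome 2, 163506808 to 163572910 on mm10, plus strand, 13 merged exonic blocks) was lowest in 2D shGFP, where the 4 libraries held 2.17, 1.99, 1.38 and 1.87 CPM. It held 8.93, 8.18, 10.2 and 10.8 CPM in 2D shAnkrd35, and 12.2, 11, 13.4 and 12.2 CPM in 3D shGFP. The highest levels were in 3D shAnkrd35, with 30.6, 30.1, 30.7 and 29.5 CPM. No library of a group overlapped any library of another group, and the order 2D shGFP, 2D shAnkrd35, 3D shGFP, 3D shAnkrd35 held for single libraries as well as for means. The 2 middle groups lay close together, at 9.52 ± 1.19 and 12.2 ± 0.981 CPM (SD, n = 4). The label shAnkrd35 went with a log2 difference of 2.32 ± 0.12 in 2D and 1.31 ± 0.12 in 3D (SE), and 3D with 2.68 ± 0.12 over 2D with shGFP and 1.67 ± 0.12 with shAnkrd35. Hnf4a starts at more than 1 promoter, and the counts are per gene, so the promoters cannot be told apart. The antisense gene Hnf4aos overlaps its span but shares 0 exonic bases with it in the annotation. In bulk RNA, more cells that express a gene and more RNA per cell cannot be told apart, here and for the genes below.

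**Figure D1:**
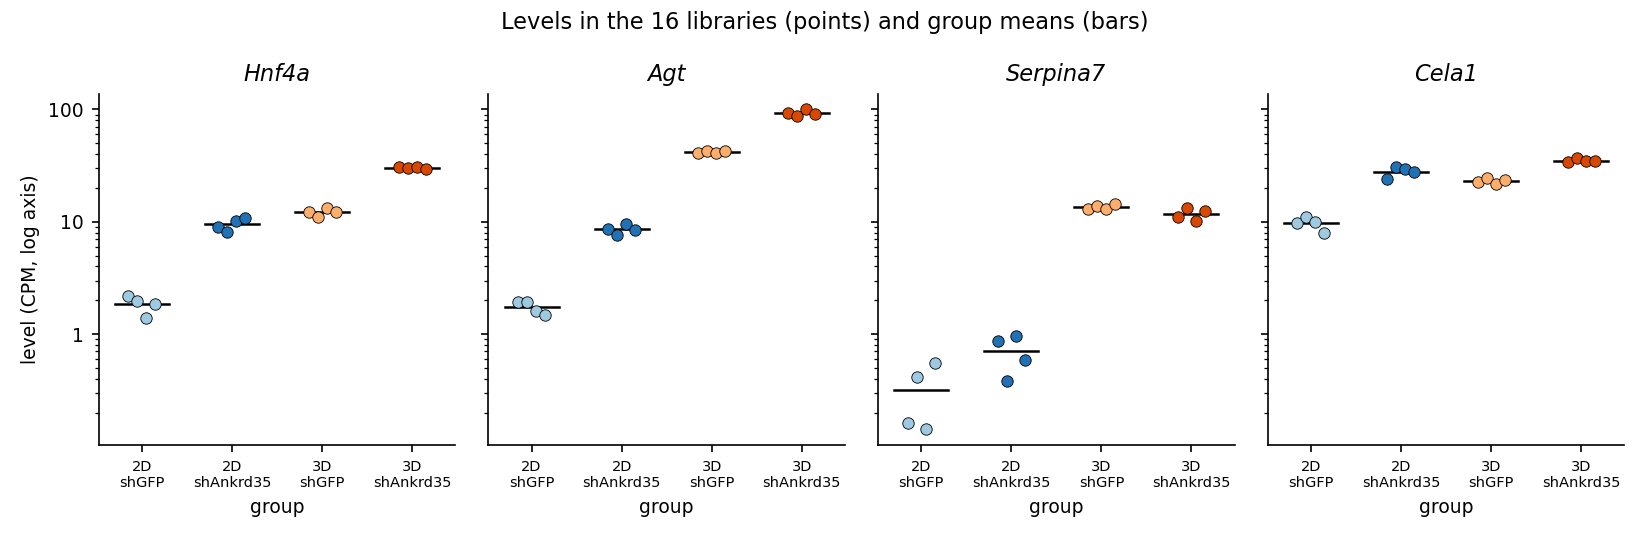
Level of each gene in every library, in CPM on a log axis, by group (points are libraries, bars the mean of 4). Hnf4a and Agt rise in the same order of groups, Serpina7 is high in both 3D groups alike, and Cela1 is lowest in 2D shGFP with the middle groups reversed.

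Agt (ENSMUSG00000031980.9, chromosome 8, 124556534 to 124569706, minus strand) kept the same order of groups as Hnf4a and spanned a wider range. Its 4 libraries held 1.93, 1.94, 1.62 and 1.47 CPM in 2D shGFP and 8.70, 7.61, 9.49 and 8.42 CPM in 2D shAnkrd35. They held 40.9, 42.3, 40.6 and 42.9 CPM in 3D shGFP and 93.7, 87.8, 100 and 91.2 CPM in 3D shAnkrd35. Again no groups overlapped. The hairpin differences were near those of Hnf4a, at 2.25 ± 0.09 in 2D and 1.16 ± 0.09 in 3D on the log2 scale (SE). The growth differences were larger than those of Hnf4a, at 4.52 ± 0.09 with shGFP and 3.44 ± 0.09 with shAnkrd35. The mean level in 3D shGFP was 24.0 times that in 2D shGFP for Agt, against 6.58 times for Hnf4a.

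Serpina7 (ENSMUSG00000031271.14, X chromosome, 139079257 to 139085236, minus strand) followed growth type and not the hairpin label in 3D. In 2D it was near the limit of detection, with 4, 8, 3 and 11 reads (0.161, 0.419, 0.143 and 0.557 CPM) with shGFP and 19, 8, 21 and 12 reads (0.874, 0.38, 0.968 and 0.594 CPM) with shAnkrd35. In 3D it held 13, 13.8, 13 and 14.5 CPM with shGFP and 11.1, 13.4, 10.1 and 12.6 CPM with shAnkrd35. The 2D libraries all lay far below the 3D libraries, while the hairpin groups overlapped in each growth type. The mean was 42.3 times higher in 3D than in 2D with shGFP and 16.7 times with shAnkrd35. On the log2 scale with the prior count these were 5.20 ± 0.30 and 3.97 ± 0.30 (SE).

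The hairpin difference of Serpina7 in 3D was -0.21 (95% interval -0.84 to 0.43), which lies below the interval of Hnf4a (1.06 to 1.56). Its SE of 0.30 is shared with the sparse 2D libraries, and with the 3D libraries alone it was 0.09 around the same -0.21. In 2D the difference was 1.03 (0.39 to 1.66) on 3 to 21 reads per library, and it was 0.72 without the 2D libraries numbered 1. Serpina7 reached 1 CPM in 9 libraries, the 8 of 3D and 1 of 2D shAnkrd35, so it is in the table through its 3D level, and a gene admitted in that way had to differ between growth types. Its GC content of 38.7% is higher than that of only 3.1% of genes in the table, and removal of a trend with length and GC content moved its growth differences to 4.44 with shGFP and 2.91 with shAnkrd35.

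Cela1 (ENSMUSG00000023031.8, chromosome 15, 100674421 to 100687921, minus strand) rose least from its lowest to its highest group. It held 9.70, 11.1, 9.95 and 7.90 CPM in 2D shGFP and 23.9, 30.8, 29.7 and 27.7 CPM in 2D shAnkrd35. In 3D it held 22.6, 24.4, 21.9 and 23.6 CPM with shGFP and 34.4, 36.6, 34.7 and 34.7 CPM with shAnkrd35. The 2D shAnkrd35 and 3D shGFP groups overlapped, and their means of 28.0 and 23.1 CPM stood in the opposite order to those of Hnf4a. All other pairs of groups were apart. The hairpin differences were 1.53 ± 0.09 in 2D and 0.60 ± 0.09 in 3D, and the growth differences 1.26 ± 0.09 with shGFP and 0.33 ± 0.09 with shAnkrd35 (log2, SE). That last value was 0.53 after removal of the length and GC trend.

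Per kilobase of exon, which allows genes to be compared, Cela1 was the most abundant of the 4 in both 2D groups, at 4.19 ± 0.573 CPM per kb with shGFP and 12.2 ± 1.32 with shAnkrd35 (SD, n = 4). Agt was the most abundant in both 3D groups, at 22.0 ± 0.581 and 49.3 ± 2.84 CPM per kb. Hnf4a itself ranged from 0.384 ± 0.0703 in 2D shGFP to 6.26 ± 0.117 in 3D shAnkrd35. Serpina7 was lowest in 2D, at 0.131 ± 0.0827 and 0.288 ± 0.109, and passed Hnf4a in 3D shGFP alone, at 5.53 ± 0.290 against 2.53 ± 0.203 CPM per kb.

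Of the 4 genes, 3 (all but Serpina7) were higher with shAnkrd35 with no overlap between the hairpin groups in 2D, where 22.3% of the 12320 genes tested were so, and the same 3 in 3D, where 18.8% were. In 3D against 2D all 4 were higher without overlap, with a background of 33.3% with shGFP and 29.9% with shAnkrd35. Hnf4a, Agt and Cela1 were higher without overlap in all 4 comparisons, a pattern held by 232 genes or 1.88% of those tested. The genes were picked on these contrasts, so nothing is read from the counts or from the ranks that follow. Counted from the highest log2 difference of all tested genes, Hnf4a, Agt, Serpina7 and Cela1 ranked 8, 9, 250 and 65 with shAnkrd35 in 2D. With shAnkrd35 in 3D they ranked 77, 111, 10133 and 503. In 3D against 2D they ranked 73, 7, 2 and 591 with shGFP, and 503, 21, 13 and 3541 with shAnkrd35. The rank of 2 rests on 3 to 11 reads of Serpina7 per 2D shGFP library. The hairpin difference in 3D minus that in 2D was -1.01 ± 0.17 for Hnf4a, -1.09 ± 0.12 for Agt, -1.23 ± 0.42 for Serpina7 and -0.93 ± 0.13 for Cela1 on the log2 scale (SE), where 35.8% of all genes passed the test in either direction.

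**Figure D2:**
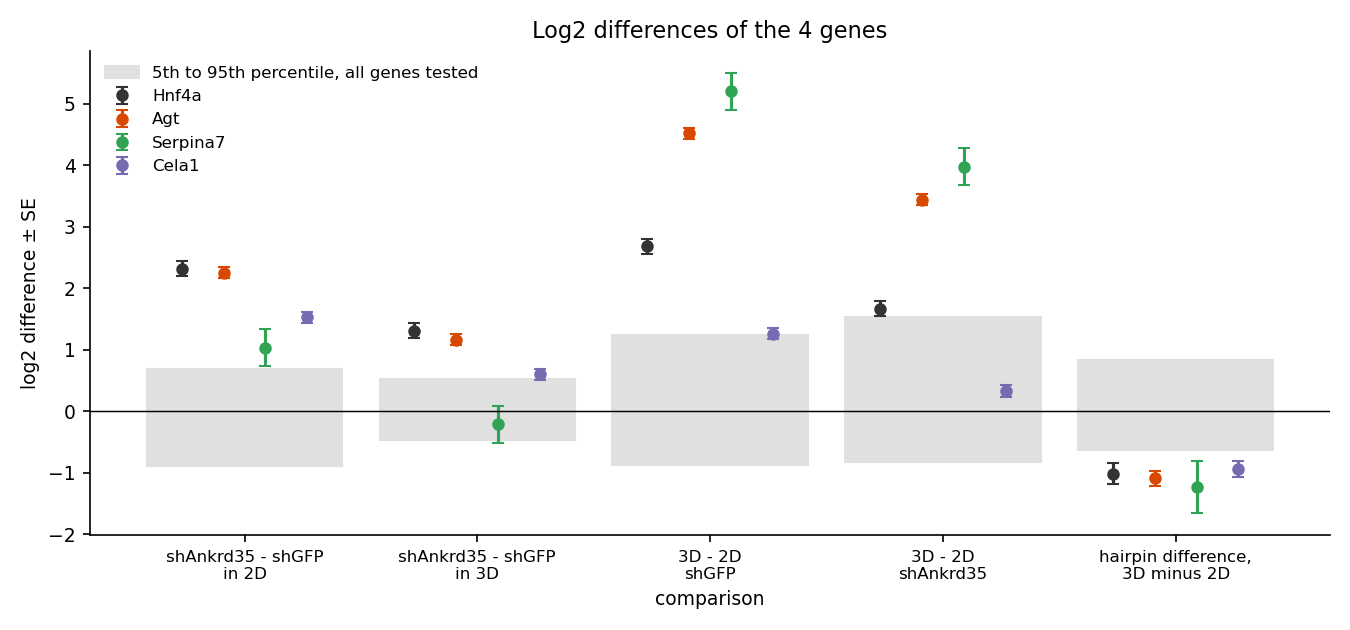
Log2 differences of the 4 genes with their SE in the 5 comparisons, over a grey band from the 5th to the 95th percentile of all 12320 genes tested. In 3D the hairpin difference of Serpina7 (-0.21) lies inside the band while those of Hnf4a (1.31), Agt (1.16) and Cela1 (0.60) lie above it, and all 4 genes fall below the band for the difference of hairpin effects.

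The ratio of each secreted-protein gene to Hnf4a within a library shows in what respect it followed. The ratio of Agt to Hnf4a did not part the hairpins: its geometric mean was 0.944 in 2D shGFP (libraries 0.784 to 1.17) and 0.901 in 2D shAnkrd35 (0.780 to 0.974), so the 2 genes moved by like amounts. In 3D it was 3.42 with shGFP (3.02 to 3.84) and 3.08 with shAnkrd35 (2.92 to 3.28), overlapping between hairpins and above every 2D library. The ratio of Serpina7 to Hnf4a was 1.11 in 3D shGFP (0.966 to 1.25) and 0.388 in 3D shAnkrd35 (0.330 to 0.445), without overlap. In 2D it was 0.148 (0.0741 to 0.297) with shGFP and 0.0699 (0.0465 to 0.0979) with shAnkrd35, on few reads. The ratio of Cela1 to Hnf4a fell from group to group as Hnf4a rose, from 5.24 in 2D shGFP (4.22 to 7.21) to 2.95 in 2D shAnkrd35 (2.57 to 3.77), 1.90 in 3D shGFP (1.63 to 2.22) and 1.16 in 3D shAnkrd35 (1.12 to 1.21), with no overlap between any 2 groups.

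**Figure D3:**
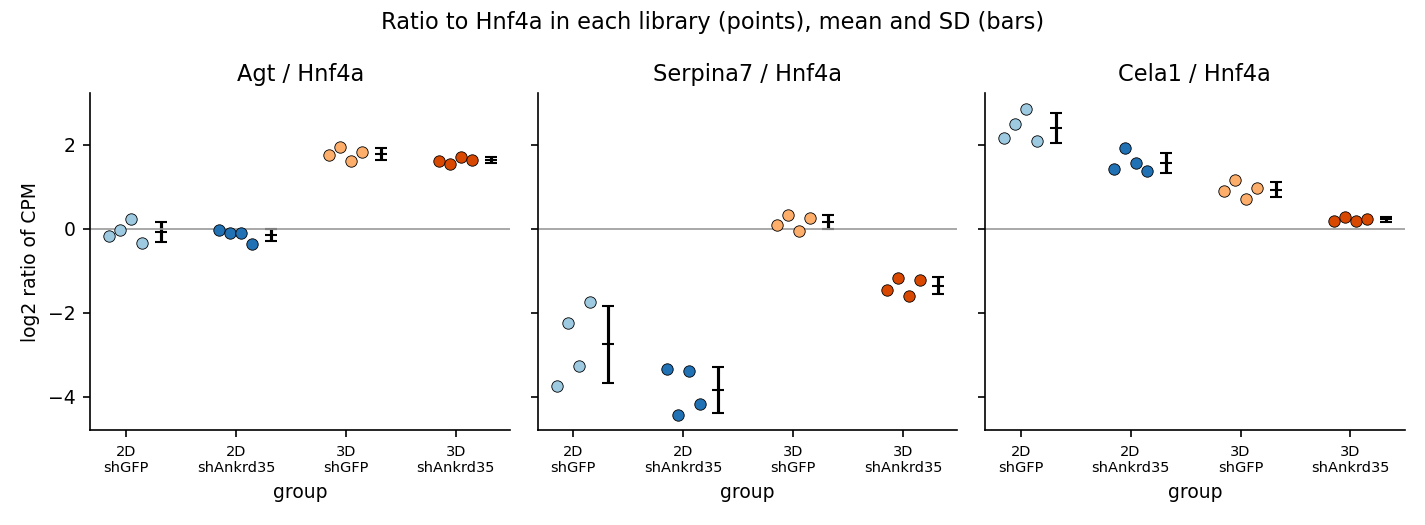
Log2 ratio of the CPM of Agt, Serpina7 and Cela1 to that of Hnf4a in each library (points), with the mean and SD of each group of 4 (bars). The Agt ratio has 1 level in 2D (-0.08 and -0.15) and another in 3D (1.78 and 1.62), the Serpina7 ratio differs by hairpin in 3D (0.15 and -1.37), and the Cela1 ratio steps down from 2.39 to 0.22.

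The groups 2D shAnkrd35 and 3D shGFP, which differ in both hairpin and growth type, had the nearest levels of Hnf4a, 1.28 times higher in 3D shGFP. Agt was 4.87 times higher in 3D shGFP than in 2D shAnkrd35 and Serpina7 19.2 times higher, whereas Cela1 was at 0.825 times. At near-equal Hnf4a RNA, the 3 genes thus stood at different levels relative to it.

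**Figure D4:**
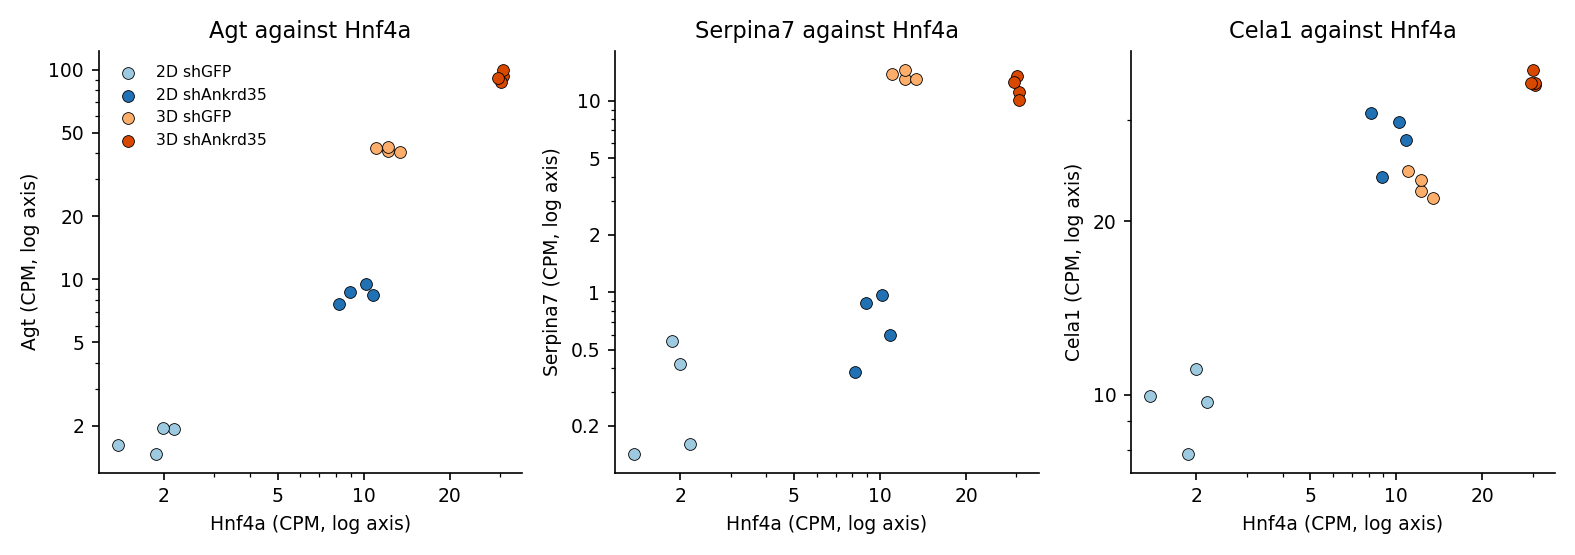
Agt, Serpina7 and Cela1 against Hnf4a in the 16 libraries, in CPM on log axes, with colours for groups. The 2D shAnkrd35 and 3D shGFP libraries lie at neighbouring Hnf4a levels (8.18 to 13.4 CPM) and are far apart for Agt and Serpina7 but overlap for Cela1.

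Over the 16 libraries, Pearson's r of the deposited log2 values with Hnf4a was 0.954 for Agt, 0.942 for Cela1 and 0.815 for Serpina7 (Spearman's rho 0.956, 0.741 and 0.738). The libraries form 4 separate groups that share their treatment, so these values mostly describe 4 group means and carry no p-value. For Agt the 4 group means of the log2 values had the same rank order as Hnf4a, and for Serpina7 and Cela1 1 neighbouring pair was exchanged. Within 3D, where r mostly restates the gap between the hairpin groups, r with Hnf4a was 0.988 for Agt and 0.967 for Cela1 but -0.674 for Serpina7 (n = 8 libraries). Within 2D it was 0.990, 0.964 and 0.716. For deviations from the group means, which leave the treatments out, r was 0.48 for Agt (0.34 without the 2 libraries farthest out in Hnf4a), 0.33 for Serpina7 and -0.10 for Cela1 (n = 16). Among all genes, ranked by the same r with Hnf4a, these stood at percentiles 96.8, 90.1 and 36.9. Spearman's rho of the deviations was 0.43 for Agt, 0.12 for Serpina7 and -0.16 for Cela1. For Serpina7 and Hnf4a the deviations were widest in 2D, where their reads were fewest. The log2 SD of Serpina7 was 0.74 (shGFP) and 0.53 (shAnkrd35) in 2D against 0.07 and 0.18 in 3D. That of Hnf4a was 0.27 and 0.18 against 0.12 and 0.03, so the 2D libraries weigh most in these r values. Both genes of a pair come from the same library, so its depth and composition as well as any other difference between libraries of a group remain in these values.

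By Pearson's r of the log2 values themselves, treatments included, 341 of the 12319 other genes (2.8%) were above 0.9 with Hnf4a. In that ranking of all 12319 Agt was 78th, Cela1 120th and Serpina7 887th. Among named genes of at least 5 CPM on average, the 6 most like Hnf4a were Dnajc22 (r = 0.987), Plekha7 (0.985), Ddc (0.984), Myo15b (0.983), Car13 (0.983) and Maoa (0.979). Ddc encodes aromatic amino acid decarboxylase, Maoa monoamine oxidase A, Car13 a carbonic anhydrase and Plekha7 a protein of adherens junctions. Ddc, for example, held means of 0.717, 3.5, 5.62 and 14.1 CPM in 2D shGFP, 2D shAnkrd35, 3D shGFP and 3D shAnkrd35. From 2D shGFP to 3D shAnkrd35, the mean of Hnf4a went from 1.85 to 30.2 CPM and that of Myo15b from 0.168 to 16.1 CPM. The range was far smaller for Dnajc22 (14.3 to 34 CPM), Plekha7 (20.8 to 55.2 CPM), Car13 (12.7 to 39.8 CPM) and Maoa (57 to 136 CPM). The 3 genes most like Agt were the cytochrome P450 gene Cyp3a13 (0.997), Wdr72 (0.992) and Pik3r3 (0.992). Those most like Cela1 were Oaf (0.987), Gnpda1 (0.986) and Pepd (0.981), and those most like Serpina7 were Brd8 (0.992), Nuf2 (0.990) and Dixdc1 (0.989), with a range of levels far smaller than its own.

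Albumin (Alb), the defining hepatocyte transcript, passed the test in 0 of the 5 comparisons (log2 difference -0.61 ± 0.49 in 3D against 2D with shGFP, adjusted p = 0.278 in limma). It held 6 to 9.53 CPM in 2D shGFP, 5.21 to 12.6 in 2D shAnkrd35 and 4.13 to 6.35 in 3D shGFP, while Agt and Serpina7 were far higher in 3D shGFP than in 2D. In 3D shAnkrd35 it held 3.55, 31.2, 6.81 and 13.1 CPM, and replicate 2 was also highest there in Ahsg (5.87 against 0.561 to 2.08 CPM) and Apoa1 (5.08 against 0.815 to 2.39 CPM). That library had the lowest Agt of its group (87.8 CPM), the highest Serpina7 (13.4 CPM) and the highest Cela1 (36.6 CPM). Of the other hepatocyte markers with rows, 2 (Fgb and Apob) were higher in 3D with each hairpin at an adjusted p under 0.05 in limma. Of all tested genes 35.2% were so with shGFP and 4235 of 12320 with shAnkrd35, so nothing is read from this count. The fibrinogen chain Fgb had means of 1.59, 3.05, 9.08 and 8.02 CPM in 2D shGFP, 2D shAnkrd35, 3D shGFP and 3D shAnkrd35, and it rose in 3D with shGFP (2.49 ± 0.18, adjusted p = 3.45e-09) and with shAnkrd35 (1.36 ± 0.18, adjusted p = 5.26e-06), and with the hairpin in 2D (0.94 ± 0.18, adjusted p = 0.000395). Apob, the structural protein of hepatic lipoproteins, had means of 0.39, 0.687, 2.38 and 4.19 CPM in the same order of groups. Like Serpina7 it is in the table through its 3D level. Its log2 growth differences, 2.39 ± 0.33 with shGFP and 2.57 ± 0.33 with shAnkrd35, are therefore a description without p-values. Without replicate 2 of 3D shAnkrd35 the hairpin differences of the 4 genes in 3D were 1.31 for Hnf4a, 1.19 for Agt, -0.27 for Serpina7 and 0.58 for Cela1.

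Markers of stomach and intestine, tissues that also express HNF4A, had rows for 6 of 11 (Muc5ac, Vil1, Cdx2, Lgals4, Cdh17 and Ctse). Their summed level had the same order of groups as Hnf4a, at 21.3 to 22.6 CPM in 2D shGFP, 44.1 to 49.4 in 2D shAnkrd35, 75.2 to 82.5 in 3D shGFP and 166 to 194 in 3D shAnkrd35. Singly, Muc5ac, Lgals4 and Cdh17 had that order of means and the other 3 did not: Ctse (4.5 and 2.64 CPM) and Vil1 (1.42 and 1.31 CPM) were lower in 3D shGFP than in 2D shAnkrd35, and Cdx2 was lower in 3D shAnkrd35 (16.6 CPM) than in 3D shGFP (27.6 CPM). At an adjusted p under 0.05 in limma all 6 rose with shAnkrd35 in 2D, where 29% of all tested genes did, and in 3D 5 rose and 1, Cdx2, fell, against 15% and 14.6% of all genes. The summed macrophage markers, mainly Cd14, had the same order (41.4 to 42.7, 79.5 to 87.9, 116 to 124 and 130 to 152 CPM). Of those with rows, only Cd14 had that order of means by itself. Lyz2 held 1.1 to 6.99 CPM in 2D shAnkrd35 and 0.935 to 1.77 CPM in 3D shGFP. Cd68 held 3.5 to 5.88 CPM in 3D shGFP and 2.67 to 7.74 CPM in 3D shAnkrd35. Ptprc, Csf1r and Adgre1 had no row. The part of these cell type programs in the levels of Hnf4a and Agt was not tested.

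Genes of the wider programs were counted in lists that leave the 4 genes out and that overlap in a few members. A gene counts as higher or lower at a Benjamini-Hochberg adjusted p under 0.05 in limma, a rule met with shAnkrd35 by 57.9% of tested genes in 2D (29% upward, 28.8% downward) and by 29.7% in 3D (15% and 14.6%). Of 30 partners of HNF4A and other endodermal transcription factors 18 were tested, 7 being higher and 3 lower in 2D (median log2 difference 0.12, against 0.01 for all genes) and 8 higher and 1 lower in 3D (0.27, against 0.00). The pioneer factor gene Foxa1 rose with shAnkrd35 in both growth types (0.61 ± 0.06 in 2D, adjusted p = 2.39e-07, and 0.45 ± 0.06 in 3D, adjusted p = 1.72e-05, SE), from 68.7 to 105 and from 106 to 145 CPM. Sox9, a factor of ducts and progenitors, rose by 0.59 ± 0.07 and 0.65 ± 0.07. The coactivator gene Ppargc1a rose in 3D (1.0 ± 0.10, adjusted p = 9.21e-07). The intestinal factor gene Cdx2 rose in 2D (0.71 ± 0.09) and fell in 3D (-0.74 ± 0.09). Rxra, the most abundant of the list, was not called (-0.12 in 2D, 0.00 in 3D).

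Of 74 proteins that hepatocytes secrete, 20 had tested genes. In 2D 5 were higher and 3 lower with shAnkrd35 (median 0.10), and in 3D 5 and 5 (0.20). Of all tested genes 57.9% were called in 2D and 29.7% in 3D. The retinol carrier Rbp4 rose from 38.3 to 88.9 CPM in 2D (1.21 ± 0.06, adjusted p = 1.4e-10) and by 0.25 ± 0.06 in 3D. The fetal albumin homologue Afp rose by 1.27 ± 0.07 in 2D and 0.73 ± 0.07 in 3D, and haptoglobin (Hp) rose in 2D (1.45 ± 0.15, adjusted p = 8.3e-07). Fetub, a fetuin, fell in both (-1.52 ± 0.10 and -1.44 ± 0.10), and the hyaluronan-binding Itih2 fell in 3D (-0.90 ± 0.07). The most abundant, the copper carrier ceruloplasmin (Cp), fell in 3D (-0.34 ± 0.08, adjusted p = 0.00555) and was at -0.16 in 2D. In 3D against 2D with shGFP 10 of the 20 were higher and 1 lower (median 0.63), where 35.2% of all tested genes were higher and 32.1% lower and the median was 0.03. That comparison shares the 2D shGFP libraries with the 2D hairpin comparison.

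Of 34 hepatocyte metabolic genes known as HNF4A targets 11 were tested, with 5 higher and 2 lower in 2D (median 0.08) and 5 higher and 3 lower in 3D (0.23). The share called among all tested genes was 57.9% in 2D and 29.7% in 3D. Pklr, the liver-type pyruvate kinase, rose from 1.39 to 6.73 CPM in 2D (2.21 ± 0.10) and from 5.59 to 14.5 CPM in 3D (1.37 ± 0.10). Asl of the urea cycle rose in 2D (0.54 ± 0.07), and Cyp27a1 of bile acid synthesis rose in 3D (1.17 ± 0.12). The sulfotransferase gene Sult1a1 fell in both (-0.76 ± 0.14 and -0.89 ± 0.14), and Acsl1, which activates fatty acids, fell in 2D (-0.85 ± 0.15). Cpt1a, the most abundant, rose by 0.28 ± 0.05 and 0.23 ± 0.05.

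**Figure D5:**
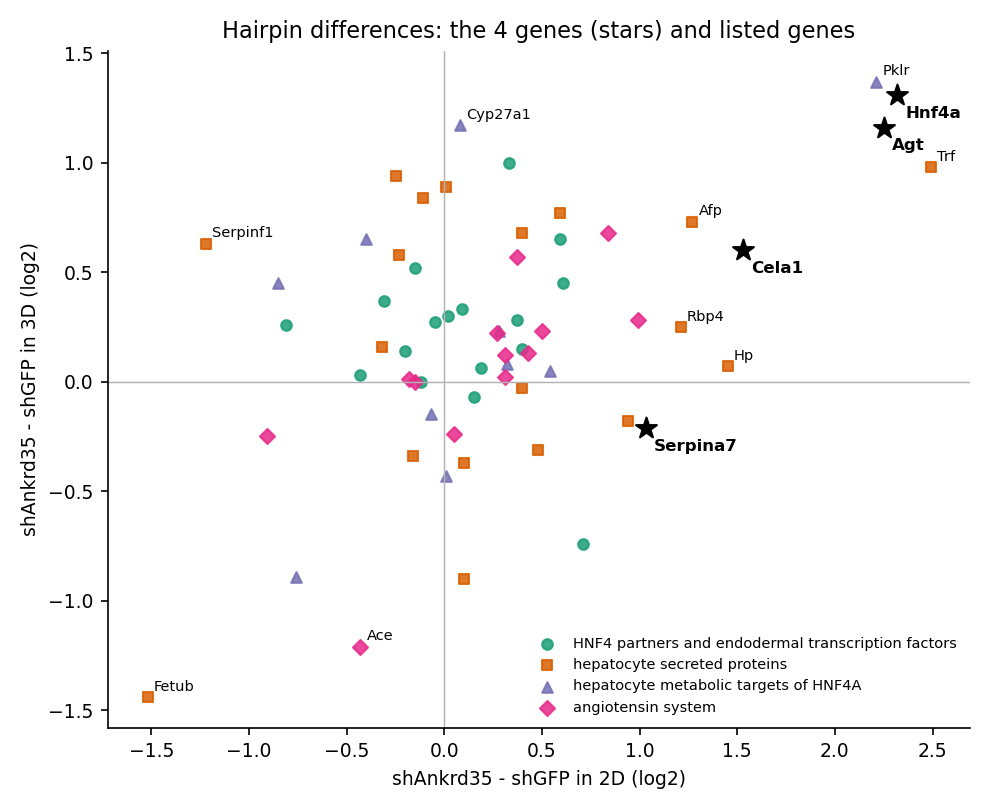
Log2 hairpin differences (shAnkrd35 minus shGFP) in 2D on the x axis and 3D on the y axis for Hnf4a, Agt, Serpina7 and Cela1 (stars) and tested members of 4 lists, a few of which are not reported here (symbols by list, names where either difference exceeds 1). Pklr (2.21 and 1.37) lies beside Hnf4a (2.32 and 1.31) and Agt (2.25 and 1.16), and most listed genes lie within 1 of 0 on both axes.

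Around Agt, 13 of 23 genes of the angiotensin system were tested, with 6 higher and 3 lower in 2D with shAnkrd35 (median 0.31) and 5 and 2 in 3D (0.12). The background of called genes was again 57.9% in 2D and 29.7% in 3D. Ace, which converts angiotensin I to angiotensin II, fell in both, from 83.8 to 62.2 CPM in 2D (-0.43 ± 0.05, adjusted p = 5.18e-06) and from 159 to 68.8 CPM in 3D (-1.21 ± 0.05, adjusted p = 1.25e-10). The peptidases Ctsa (0.99 ± 0.04 and 0.28 ± 0.04) and Rnpep (0.50 ± 0.05 and 0.23 ± 0.05) rose in both, and Ctsd, the most abundant of the list, rose in 2D (0.43 ± 0.05). Prcp fell in 3D (-0.24 ± 0.05). Renin and the angiotensin receptor genes had no row.

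Around Serpina7, 13 of 22 genes of thyroid hormone transport, conversion and response were tested, with 1 higher and 5 lower in 2D (median -0.06) and 1 and 3 in 3D (0.00). Here and for the elastase list below, the background of called genes was 57.9% in 2D and 29.7% in 3D. The transporter subunit gene Slc7a5 fell in 2D (-1.61 ± 0.08, adjusted p = 7.82e-11), as did its partner Slc3a2 (-0.74 ± 0.06). Slc16a10, a carrier of aromatic amino acids and thyroid hormone, fell by 0.48 ± 0.12 in 2D and by 1.96 ± 0.12 in 3D on the log2 scale. The receptor gene Thrb fell in both (-0.91 ± 0.14 and -0.67 ± 0.14). The corepressor gene Ncor1 fell in 2D (-0.35 ± 0.08). Of 16 elastases and elastase inhibitors 5 were tested, with 3 higher in 2D and 2 higher and 1 lower in 3D (medians 0.42 and 0.00). All 3 of the 2D calls and the lower call in 3D were lost under at least 1 alternative (Slpi and Serpinb6a without single libraries, Timp1 after removal of the length and GC trend). The most abundant, Serpinb6a, rose in 3D (0.27 ± 0.05, adjusted p = 0.000318). Of the 32 pancreatic acinar genes besides Cela1, 0 had a row in the table, so Cela1 stood without any other listed digestive enzyme of the pancreas.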

How the data were processed

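The authors deposited 1 log2 value per gene and library for 16 libraries (0 columns were of other samples). Trimmomatic 0.38, STAR 2.5.1b, edgeR and mm10 are named, per the submitters' processing notes. How reads were counted, with which annotation and strand setting, and how low genes were filtered is not given in the sources used here. From the values, they are log2 CPM with a prior that averages 2 reads. With that prior taken off, 100% of values came out as whole reads within 0.01 reads, which gave the reads and CPM printed. GENCODE M21 gave coordinates, exonic length and GC content (12194 symbols matched, 385 restored).

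Genes with at least 1 CPM, prior included, in at least 4 libraries (12320) were fitted with limma 3.58.1 in R 4.3.3 (trend, robust, 4 group means over 16 libraries, 5 contrasts) with Benjamini-Hochberg adjustment over all of them. The 95% intervals come from that fit. The fitting steps were tested on simulated data. Alternatives covered the filter, scaling, added constant, length and GC trend, a replicate block and each library left out. The members, lists and tests were chosen with earlier results of these data known. By rule, each list named up to 4 genes of smallest p per hairpin contrast and its most abundant one, and a few of these are not reported here. The 6 genes most like Hnf4a and the 3 most like each other gene were named.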

Additional observations from a re-analysis of the deposited data

Results flagged for a closer look

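Among 16 sets of 4 libraries (4 genes in 4 groups), 1 held a library that stood apart: Cela1 in 3D shAnkrd35, where replicate 2 had 36.6 CPM against 34.4 to 34.7 CPM in the others, a gap of 0.892 of the whole range on the log2 scale. Chance alone flags about 5% of such sets. The same library was the highest of its group in albumin.

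For 21 of 31 listed genes named by the rule, the hairpin effect in 3D differed from that in 2D by limma's interaction term at an adjusted p under 0.05 (35.8% of all tested genes), 15 of them toward a lower value in 3D. These genes were picked mostly for small p in a hairpin contrast, which favours such calls. Over all 78 tested list genes 14 were called higher and 22 lower. Among endodermal factors the log2 difference of effects (3D minus 2D) was -1.44 for Cdx2 and 0.67 for Ppargc1a. Among secreted proteins it was -0.96 for Rbp4, -0.55 for Afp, -1.37 for Hp and -1.0 for Itih2. Among metabolic genes it was -0.84 for Pklr, -0.49 for Asl, 1.30 for Acsl1 and 1.09 for Cyp27a1. In the angiotensin system it was -0.71 for Ctsa, -0.27 for Rnpep, -0.30 for Ctsd, -0.78 for Ace and -0.30 for Prcp. For thyroid hormone genes it was 1.57 for Slc7a5, 0.56 for Slc3a2, 0.36 for Ncor1 and -1.49 for Slc16a10, and for elastase inhibitors -0.42 for Timp1 and -0.95 for Slpi. The differences for Ncor1 and Timp1 lost their call after removal of the length and GC trend. Cdx2 rose in 2D (0.71) and fell in 3D (-0.74).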

How the results depend on the processing

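The differences of Hnf4a, Agt, Serpina7 and Cela1 kept their direction in all 5 comparisons under every alternative run, including without each single library. With log2(CPM + 1), which shrinks low levels by construction, the 2D hairpin differences were 1.88 for Hnf4a, 1.80 for Agt and 0.37 for Serpina7; the growth differences with shGFP 2.21, 3.97 and 3.47; those with shAnkrd35 3.30 for Agt and 2.91 for Serpina7; and the differences of effects -0.64, -0.66 and -0.56 for Hnf4a, Agt and Serpina7. After removal of the length and GC trend the 2D hairpin differences were 2.02 for Agt and 1.33 for Cela1; the growth differences 4.44 with shGFP and 2.91 with shAnkrd35 for Serpina7, and 1.81 for Hnf4a, 3.67 for Agt and 0.53 for Cela1 with shAnkrd35; and the differences of effects -0.90 for Agt and -0.76 for Cela1. With deviations from group means, r with Hnf4a was 0.48 for Agt, 0.33 for Serpina7 and -0.10 for Cela1. Spearman's rho of the log2 values, treatments included, was 0.74 for Cela1.

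With the replicate block 6967 genes were called in 2D and 3448 in 3D for the hairpin, against 7129 and 3655. Same-numbered libraries correlated at -0.48 to 0.21 in their deviations, and the closest library mostly bore another number. The labels do not say that the numbers pair libraries, and these correlations cannot decide it. Of 119 called results for named listed genes, 19 lost their call under at least 1 alternative and 0 reversed. Calls lost without at least 1 single library (Acsl1, Ctsd and Slc3a2 in 3D, Serpinb6a in 2D, and Slpi in both) are included in the counts of their lists but are not described singly, and the call of Ppargc1a in 2D was lost without both 2D libraries numbered 1. Precision is limited most for Serpina7 in 2D, which rests on 3 to 21 reads per library.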
